A study of Mus musculus with 11 samples.

Results

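H19, Igf2, Rasgrf1 and Zdbf2 are imprinted genes, and each lies in a domain where DNA methylation is known on the copy inherited from the father. They were read here with CUT&Tag-BS, an assay in which an antibody to a histone mark guides a transposase that cuts nearby DNA, so that after bisulfite conversion the same fragments report CpG methylation. Each locus was taken as the gene body with 10 kb on both sides, and with 40 kb on both sides for Rasgrf1, and was divided into 1-kb windows. The 4 loci held 390 of the 2526718 windows with a CpG on chromosomes 1 to 19 and X, with 24 at H19, 37 at Igf2, 196 at Rasgrf1 and 133 at Zdbf2. All 4 genes were found in the RefSeq gene table. In GRCm38 (mm10), H19 (gene ID 14955, a long noncoding RNA) spans chr7:142575530-142578146 on the minus strand, and Igf2 (16002) spans chr7:142650768-142666816 on the same strand. Rasgrf1 (19417) spans chr9:89909508-90026979 and Zdbf2 (73884) spans chr1:63200358-63314576, both on the plus strand.

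As background, imprinting lets a gene be expressed from only the maternal or the paternal copy, and it is set by control regions that receive methylation in the sperm or the egg. The control region upstream of H19 binds the insulator protein CTCF when it is unmethylated, as on the maternal copy. Igf2, which encodes a fetal growth factor, is then cut off from the enhancers downstream of H19, and H19 is expressed instead. At Rasgrf1, which encodes a guanine nucleotide exchange factor for Ras, a differentially methylated stretch with CTCF sites lies upstream of the gene next to a repeat that is needed to methylate it. Zdbf2 encodes a zinc finger protein, and a long transcript that starts far upstream of its main promoter is known to guide methylation between the starts in the early embryo. H3K9me3 is known on the methylated copy of many control regions, H3K4me1 on enhancers and promoter flanks, and H3K27me3 on genes silenced by Polycomb. The counts used here do not tell the parental copies apart.

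The cells were E14 mouse embryonic stem cells, a single line of 129/Ola background, cultured in serum medium to which leukemia inhibitory factor was added, with 1 genotype and no treatment throughout. There were 8 bisulfite libraries and 3 controls without bisulfite conversion, 1 for each mark. H3K4me1 and H3K9me3 were each profiled from 250000 cells and read as run 1 (35-bp paired reads) and run 2 (75-bp), and H3K27me3 was profiled from 4000, 20000, 100000 and 250000 cells. A call is one read of the methylation state of a CpG, and the libraries held from 378056 calls (H3K27me3, 4000 cells) to 37177077 calls (H3K27me3, 250000 cells). At CpGs called once in each run the state agreed in 97.6% for H3K4me1 and 95.9% for H3K9me3, against 77.4% and 83.5% for a pair of calls within run 2. The labels do not say whether both runs read 1 library. From this agreement they were counted as repeat sequencing of 1 library, which leaves each mark without a replicate at 250000 cells. Over chromosomes 1 to 19 and X, 32.5% of calls were methylated in H3K4me1 run 2, 81.9% in H3K9me3 run 2 and 32.5% in H3K27me3 from 250000 cells. Of 7 embryonic stem cell marker genes that could be placed, 5 carried an H3K4me1 peak at the start, with H3K4me1 levels from 0 to 3.13%. Esrrb and Klf4 did not. Esrrb had an H3K27me3 peak at its start, with 109 of 147 H3K27me3 calls methylated (74.1%), and Klf4 had no peak of any mark there. A level is given as methylated calls over all calls, with its Wilson 95% interval, which covers counting error only.

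The promoter letters show where CpGs can be read at all. RefSeq promoters (GRCm38.p6) were at hand for 3 of the 4 genes, with 7 starts, and none for H19. The 5 printed here span the CpG-poor and CpG-rich starts of Igf2, the start of Rasgrf1, and both starts of Zdbf2. Each line gives the 250 bases before the start, 5′ to 3′ on the gene strand, with every CG in capitals. They lie at chr7:142666817-142667066 and chr7:142658805-142659054 (minus strand, in that order for Igf2), chr9:89909525-89909774 (plus), chr1:63200108-63200357 and chr1:63273019-63273268 (plus).
Igf2 start 1: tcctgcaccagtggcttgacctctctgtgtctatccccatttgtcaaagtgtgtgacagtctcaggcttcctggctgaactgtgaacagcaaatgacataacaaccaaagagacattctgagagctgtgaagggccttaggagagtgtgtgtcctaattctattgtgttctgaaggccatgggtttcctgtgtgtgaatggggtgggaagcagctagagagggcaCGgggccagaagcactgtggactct
Igf2 start 3: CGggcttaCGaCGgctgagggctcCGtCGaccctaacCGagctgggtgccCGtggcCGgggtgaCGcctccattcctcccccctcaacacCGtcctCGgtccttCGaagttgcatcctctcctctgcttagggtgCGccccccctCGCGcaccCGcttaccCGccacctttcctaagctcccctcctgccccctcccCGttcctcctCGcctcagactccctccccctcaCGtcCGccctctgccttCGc
Rasgrf1 start: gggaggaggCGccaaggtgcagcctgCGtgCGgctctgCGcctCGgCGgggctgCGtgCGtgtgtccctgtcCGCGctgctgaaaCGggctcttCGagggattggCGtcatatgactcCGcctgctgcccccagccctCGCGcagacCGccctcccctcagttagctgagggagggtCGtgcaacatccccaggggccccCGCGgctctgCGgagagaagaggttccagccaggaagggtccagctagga
Zdbf2 start 1: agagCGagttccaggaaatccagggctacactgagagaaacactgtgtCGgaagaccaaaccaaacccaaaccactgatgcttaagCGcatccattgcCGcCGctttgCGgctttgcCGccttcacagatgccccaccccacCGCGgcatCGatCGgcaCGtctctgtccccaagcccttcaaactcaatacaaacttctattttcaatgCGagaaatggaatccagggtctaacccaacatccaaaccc
Zdbf2 start 2: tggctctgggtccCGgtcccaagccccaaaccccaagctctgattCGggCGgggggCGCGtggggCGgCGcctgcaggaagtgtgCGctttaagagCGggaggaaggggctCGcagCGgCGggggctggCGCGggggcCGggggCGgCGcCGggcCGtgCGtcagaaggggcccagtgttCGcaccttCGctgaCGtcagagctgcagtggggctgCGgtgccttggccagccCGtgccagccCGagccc

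Igf2 start 1 has 1 CpG, and 29 of 30 H3K27me3 calls there were methylated (96.7%, interval 83.3 to 99.4%). Igf2 start 3 has 22 CpGs, with 9 of 812 H3K27me3 calls methylated (1.11%, 0.584 to 2.09%) and 0 of 33 H3K4me1 calls, which allows up to 9.09%. The Rasgrf1 start has 21 CpGs, with 8 of 993 H3K27me3 calls methylated (0.806%) and 0 of 56 H3K4me1 calls, which allows up to 5.36%. At Zdbf2 the first start has 13 CpGs and 0 of 72 methylated H3K4me1 calls (up to 4.17%), and the second has 26 CpGs with 0 of 36 H3K4me1 calls (up to 8.33%) and 1 of 79 H3K27me3 calls (1.27%). The promoters of Igf2 starts 2 and 4, not shown, had 42 of 378 (11.1%) and 53 of 202 (26.2%) methylated H3K27me3 calls. So the 4 CpG-rich promoters shown were at or near 0 in each library that read them, and the CpG-poor one was nearly fully methylated. The hexamer TGCCGC, the core bound by the imprinting factor ZFP57, was searched on both strands of 300 bases around each start. It occurred in 2 of the 7 member promoters, the second Igf2 start and the first Zdbf2 start, against 11.6% of 32851 promoters of the same length. A core motif of CTCF was found in 0 of the 7 and in 0.122% of all. These matches only describe the letters of these windows.

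**Figure D1:**
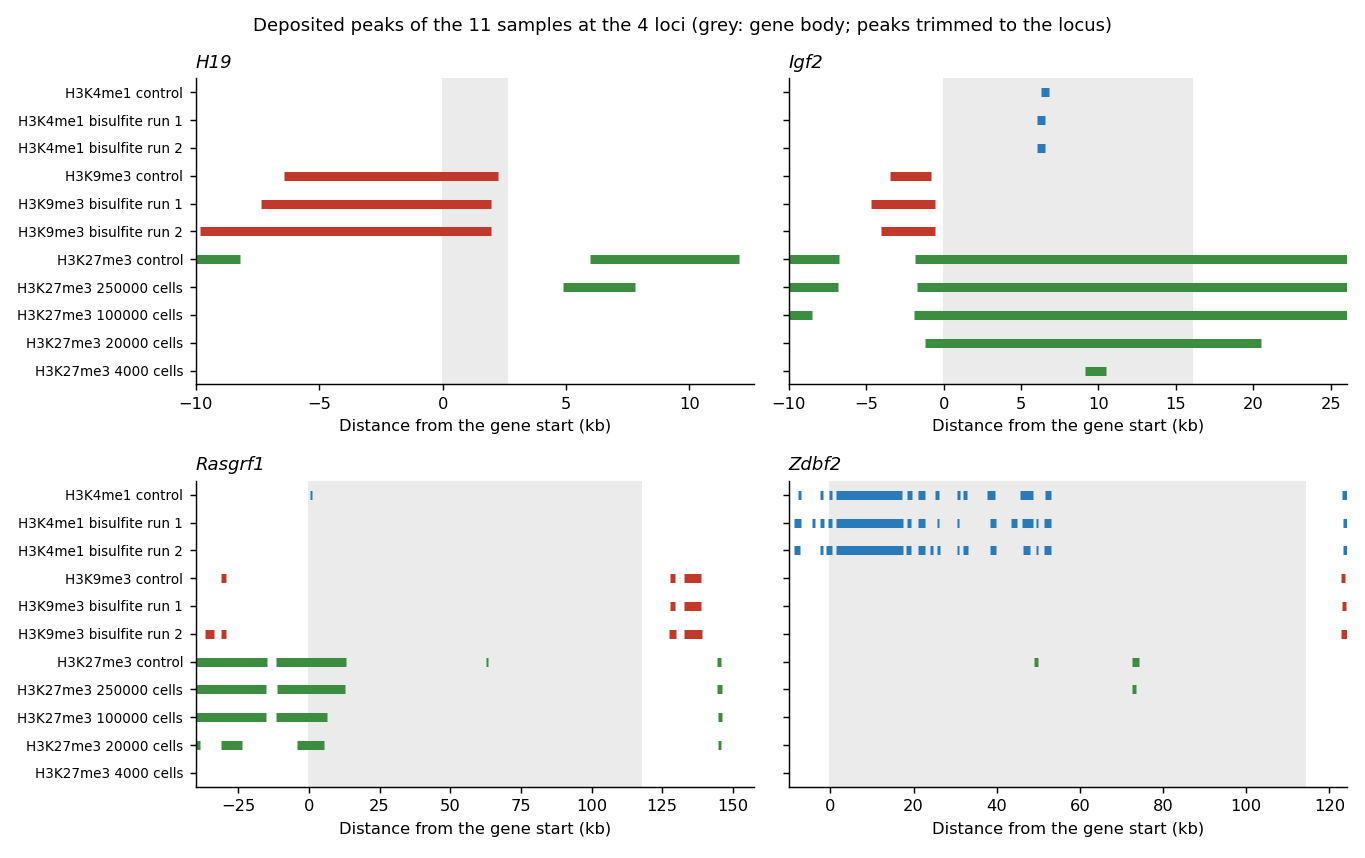
Deposited peaks of each sample (rows, coloured by mark) at the 4 loci, by distance from the gene start in kb along the gene strand; grey marks the gene body. H19 holds H3K9me3 peaks of 8.66 to 11.8 kb in all 3 lists of the mark and no H3K4me1 peak. Igf2 and the Rasgrf1 flank hold broad H3K27me3 peaks, and the Zdbf2 locus holds most H3K4me1 peaks.

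H3K4me1 peaks lay mostly at Zdbf2, and H3K9me3 and H3K27me3 peaks lay mostly at the other 3 loci, which they shared. H3K9me3 peaks touched 13 of 24 windows at H19, 5 of 37 at Igf2, 18 of 196 at Rasgrf1 and 2 of 133 at Zdbf2, against 2.97% of all windows. H3K27me3 peaks touched 12, 33, 57 and 5 windows in the same order, against 4.87% of all. H3K4me1 peaks touched 0, 2, 2 and 55 windows, against 4.25% of all. Zdbf2 was thus below the genome share for H3K9me3 and H3K27me3 and above it for H3K4me1, and the other 3 loci were above it for H3K9me3 and H3K27me3. These are peaks of the unified list of each mark, which joins its bisulfite and control lists. The lists did not always hold the same peaks. At H19 the H3K27me3 peak of 18976 bp was in the control list only, and the bisulfite libraries from 4000, 20000 and 100000 cells had no H3K27me3 peak there. The single H3K4me1 peak near the Rasgrf1 start was also in the control list only. Upstream of Rasgrf1, the H3K9me3 peak of 1844 bp joins peaks of the run 2 and control lists, and the one of 3034 bp was in the run 2 list only, with neither in the run 1 list.

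The H19 control region, here the stretch from 2 to 4 kb before the H19 start (chr7:142580147-142582146, intergenic), was read almost entirely by the H3K9me3 library and was highly methylated there. Of its 60 CpGs, all 60 had a call in H3K9me3 run 2, and 435 of 472 calls were methylated (92.2%, 89.4 to 94.3%). In H3K9me3 run 1, 193 of 209 calls were methylated (92.3%, 87.9 to 95.2%). The call density was 26.7 times the library mean per CpG in run 2 and 37.2 times in run 1. Both H3K4me1 runs had 0 calls there, where their mean density would give 27.2 calls in run 2, so the density was at most 0.11 times the mean. The H3K27me3 libraries had 0, 0, 7 and 39 calls from 4000, 20000, 100000 and 250000 cells, or 0.374 times the mean density in the deepest one.

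Single CpGs of the H19 control region were uniform in H3K9me3. Of 54 CpGs with at least 3 calls in run 2, 48 were at 80% or more, 6 lay between 20 and 80%, and 0 were at 20% or less. The few H3K27me3 calls were mixed: 0 of 7 were methylated from 100000 cells and 26 of 39 from 250000 cells (66.7%, 51.0 to 79.4%). In the deepest library the calls split by window. The window from 142580001 had 25 of 28 methylated calls (89.3%, 72.8 to 96.3%), and the next one, from 142581001, had 0 of 9 calls at 9 CpGs (up to 33.3%). The same next window had 180 of 198 methylated H3K9me3 calls in run 2 (90.9%, 86.1 to 94.2%) and 59 of 66 in run 1. With 9 calls it fell short of the 10 that the test needed.

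The methylated H3K9me3 stretch ran on over H19 itself. A single unified H3K9me3 peak of 12081 bp covered the control region, the start and most of the gene (chr7:142575898-142587978), with 1118 of 1199 methylated calls in run 2 (93.2%) and 399 of 425 in run 1 (93.9%). At the H19 start, 500 bp on both sides, 224 of 235 H3K9me3 calls were methylated in run 2 (95.3%, 91.8 to 97.4%) and 73 of 78 in run 1 (93.6%). H3K27me3 from 250000 cells had 30 of 32 there (93.8%, 79.9 to 98.3%), and H3K4me1 had 2 of 2 and 4 of 4. Every library with calls at the start was therefore high, apart from 0 of 3 calls in H3K27me3 from 20000 cells. In the 10 kb downstream of H19, which hold the enhancers shared with Igf2, no H3K4me1 peak was called. Their levels were 57 of 69 in H3K4me1 run 2 (82.6%, 72.0 to 89.8%), 50 of 62 in H3K9me3 run 2 (80.6%, 69.1 to 88.6%) and 230 of 261 in H3K27me3 (88.1%, 83.6 to 91.5%), with overlapping intervals.

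**Figure D2:**
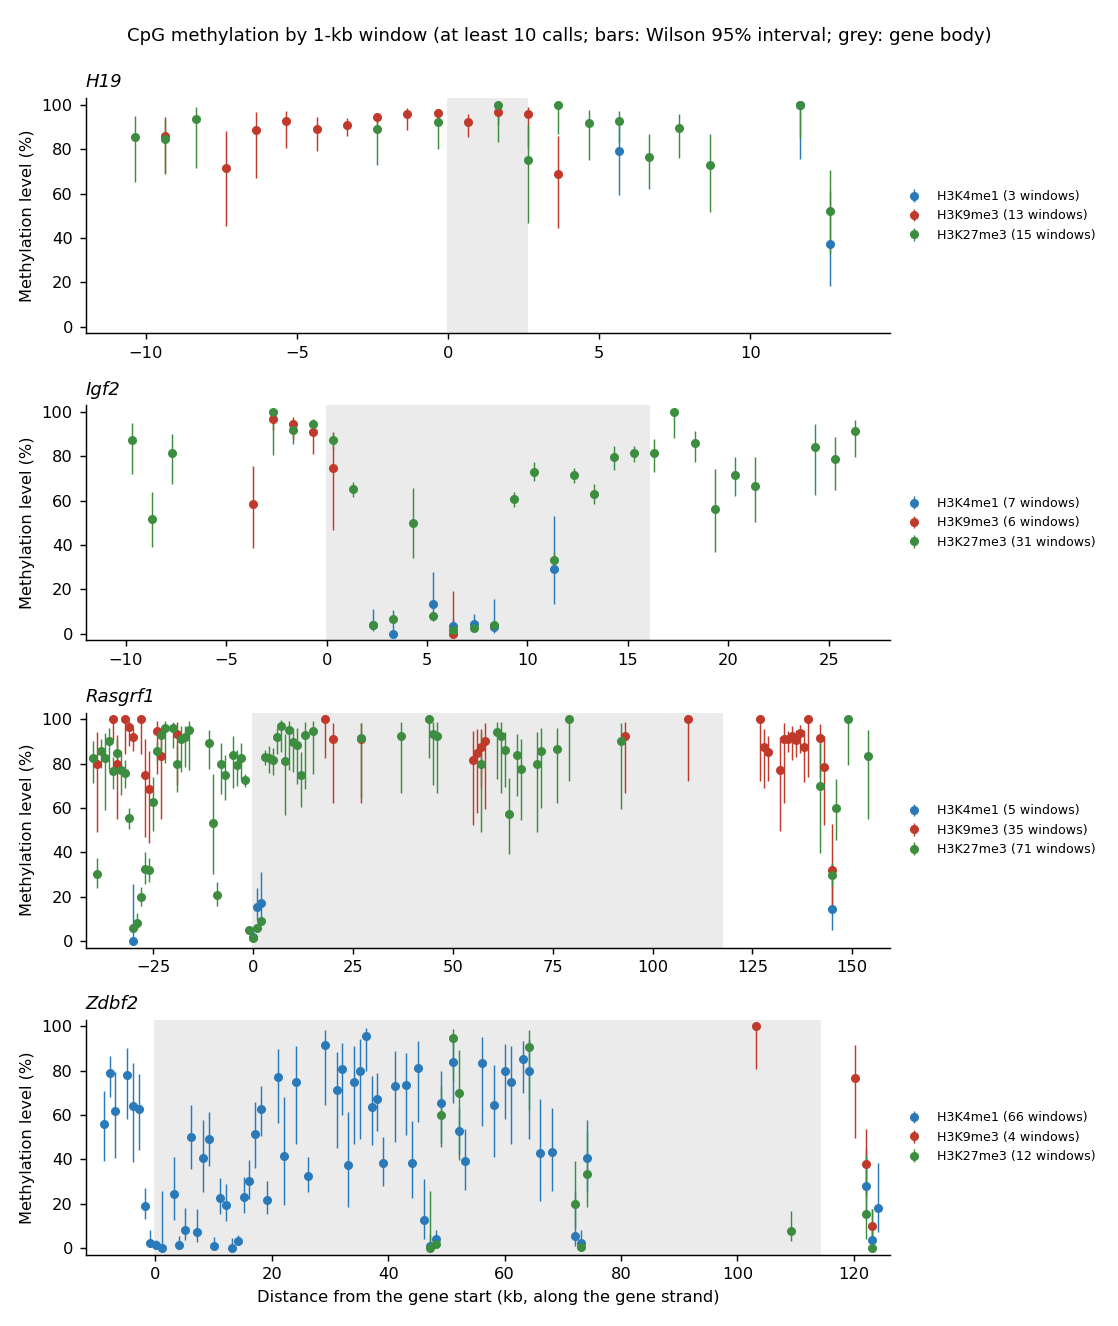
Methylation level of 1-kb windows with at least 10 calls (y axis, %) against distance from the gene start (x axis, kb) for H3K4me1 run 2, H3K9me3 run 2 and H3K27me3 from 250000 cells; bars are Wilson 95% intervals and grey marks the gene body. H3K9me3 windows at H19 sit mostly above 80%, some Igf2 windows inside the gene drop to a few percent, H3K27me3 windows upstream of Rasgrf1 drop to 5.80%, and Zdbf2 windows range from 0 upward in H3K4me1.

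Igf2 lay under H3K27me3 and held both unmethylated and methylated stretches. A unified H3K27me3 peak of 53717 bp (chr7:142614987-142668703) covered the whole gene, and the H3K27me3 call density from 250000 cells was 18.1 times the library mean at the first start. Of 31 windows with at least 10 H3K27me3 calls, 6 were at 20% or less, 13 lay between and 12 were at 80% or more. Genome-wide, 31710, 91942 and 136978 of 260630 windows of that library fell in these classes, so a mixture of levels is not particular to Igf2. Inner starts 2 and 3 lay in low windows, whereas start 4 did not. Within 500 bp of start 2, 81 of 2217 H3K27me3 calls were methylated (3.65%, 2.95 to 4.52%), and of start 3, 40 of 2632 (1.52%). At start 4, 459 of 757 were methylated (60.6%, 57.1 to 64.1%), and 298 of 494 from 100000 cells (60.3%). The 250 bases just before start 4 were lower than this wider stretch, with 53 of 202 methylated calls from 250000 cells (26.2%). Between starts 2 and 3, in the window 6.82 kb after the gene start (chr7:142659001-142660000, 101 CpGs, within the gene), the H3K27me3 levels were 0 of 16, 6 of 351 (1.71%), 45 of 2365 (1.90%) and 86 of 3488 calls (2.47%, 2.00 to 3.03%) in order of cell number. In the window 5.82 kb after the start, H3K27me3 had 65 of 4153 (1.57%), H3K4me1 run 2 had 7 of 207 (3.38%, 1.65 to 6.81%) and H3K9me3 run 2 had 0 of 16, which allows up to 18.8%. In H3K27me3 and H3K4me1 this stretch was therefore nearly free of methylation, and the H3K9me3 calls were few. Further into the gene, the window 10.8 kb after the start had 213 of 639 methylated H3K27me3 calls (33.3%).

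Both ends of Igf2 were methylated. At the first RefSeq start, the H3K27me3 levels were 3 of 3, 15 of 16 (93.8%), 58 of 68 (85.3%) and 116 of 126 (92.1%, 86.0 to 95.6%) in order of cell number. Over the last 3 kb of the gene, a stretch known to be methylated on the paternal copy in tissues that express Igf2, the H3K27me3 levels were 81 of 102 (79.4%), 379 of 462 (82.0%, 78.3 to 85.3%) and 615 of 771 (79.8%, 76.8 to 82.5%) from 20000, 100000 and 250000 cells. These 3 libraries overlapped in their intervals, and H3K4me1 had 0 calls there. Just upstream of the gene, a unified H3K9me3 peak of 4178 bp (chr7:142667345-142671522) was methylated in both marks that read it. It held 257 of 280 methylated calls in H3K9me3 run 2 (91.8%) and 340 of 361 in H3K27me3 (94.2%), and at the 47 CpGs that both called the levels were 94.3% and 94.0%.

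**Figure D3:**
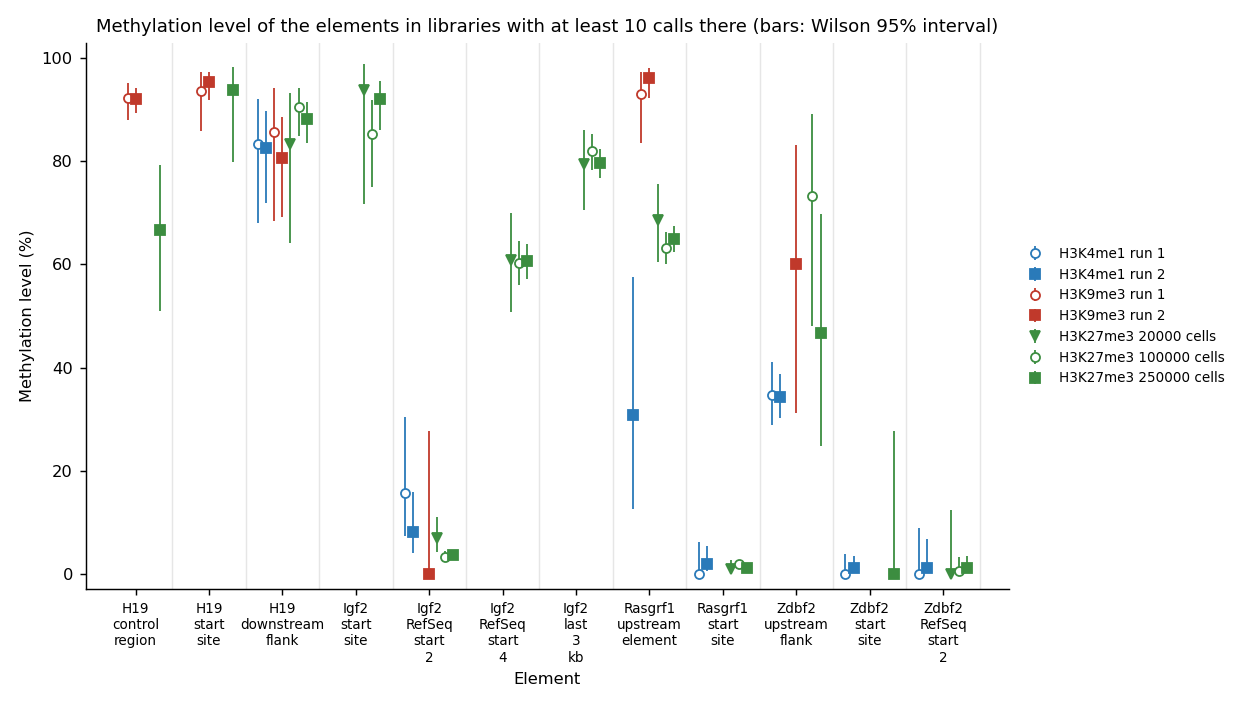
Methylation level (y axis, %) of the elements (x axis) in the libraries with at least 10 calls there, leaving out H3K27me3 from 4000 cells; bars are Wilson 95% intervals, and open symbols are run 1 or the 100000-cell library. The H19 control region and start sit above 90% in H3K9me3, Igf2 start 2, the Rasgrf1 start and both Zdbf2 starts are low, Igf2 start 4 is near 60.6%, and the Rasgrf1 upstream element is high in H3K9me3 and lower in the H3K27me3 libraries.

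Upstream of Rasgrf1, H3K9me3 and H3K27me3 reads from the same CpGs gave opposite methylation states. The clearest case was the window from 30.5 to 29.5 kb before the start (chr9:89879001-89880000, intergenic, 36 CpGs), which lay inside an H3K9me3 peak of 1844 bp and an H3K27me3 peak of 27292 bp. H3K9me3 had 45 of 45 methylated calls in run 1 and 107 of 116 in run 2 (92.2%, 85.9 to 95.9%). H3K27me3 had 3 of 5, 6 of 216 (2.78%), 63 of 1168 (5.39%) and 100 of 1723 (5.80%, 4.79 to 7.01%) from 4000, 20000, 100000 and 250000 cells. H3K4me1 had 0 of 4 and 0 of 11 calls, which allows up to 27.3% in run 2. Both H3K9me3 runs were high, the 3 deeper H3K27me3 libraries were all below 6%, and the values of the 2 marks did not overlap.

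In Fisher's exact test (two-sided, Benjamini-Hochberg over all windows with at least 10 calls in both libraries), that window was 86.4 points more methylated in H3K9me3 than in H3K27me3 (adjusted p = 5.26e-99). At CpGs called in both libraries the difference was 87.1 points. Against H3K4me1 it was 92.2 points (Fisher's exact test, adjusted p = 1.26e-08), which rests on 11 H3K4me1 calls. A pair of tests between single libraries compares those libraries, not the marks, and calls on the same fragment are not independent, so these p-values are too small. Another 3 windows passed for H3K9me3 over H3K27me3. The window 28.5 kb before the start had 21 of 21 against 62 of 314 calls (19.7%), a difference of 80.3 points (Fisher's exact test, adjusted p = 7.45e-12). The window 31.5 kb before the start had 55 of 57 (96.5%) against 229 of 413 (55.4%), a difference of 41.0 points (exact test, adjusted p = 1.07e-08). The one 35.5 kb before had 37 of 37 against 101 of 132 (76.5%), a difference of 23.5 points (exact test, adjusted p = 0.0118). With H3K9me3 run 1 in place of run 2, the windows 35.5 and 28.5 kb before the start had too few calls to be tested, and the other 2 were called with differences of 44.6 and 94.2 points. Next to the lowest window, 29.5 kb before the start, H3K27me3 was again low with 17 of 206 calls (8.25%), and H3K9me3 had only 3 calls in run 2.

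**Figure D4:**
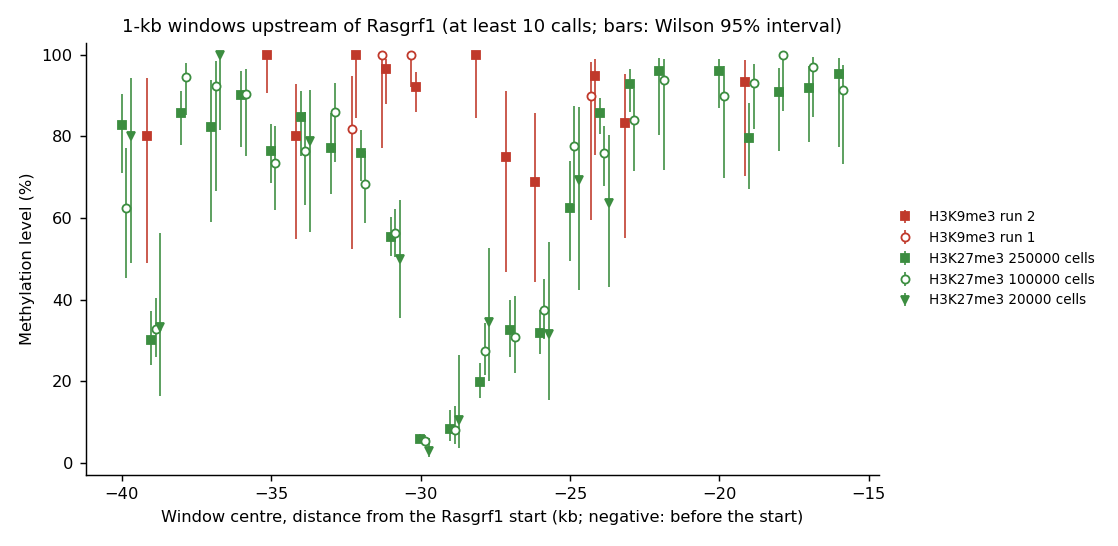
Methylation level (y axis, %) of 1-kb windows with at least 10 calls upstream of Rasgrf1, by window centre (x axis, kb from the start), in both H3K9me3 runs and 3 H3K27me3 libraries; bars are Wilson 95% intervals. The H3K27me3 libraries dip together to between 2.78 and 5.80% in the window 30.5 to 29.5 kb before the start, where H3K9me3 stays above 92%.

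The low H3K27me3 stretch was narrow. From 31.5 to 25.5 kb before the start, a span chosen after its values were seen, 6 windows had H3K27me3 levels from 5.80 to 55.4% in the 250000-cell library. The other 18 windows between 40.5 and 15.5 kb before the start had a median of 85.2%, and the lowest of them was at 30.1%. The 12 H3K9me3 windows over the same range had levels from 68.8 to 100%, with a median of 92.8%. Over the stretch from 40 to 30 kb before the start as a whole (101 CpGs), H3K9me3 run 2 had 176 of 183 methylated calls (96.2%, 92.3 to 98.1%). The H3K27me3 libraries had 98 of 143 (68.5%), 560 of 885 (63.3%) and 883 of 1359 (65.0%, 62.4 to 67.5%) from 20000, 100000 and 250000 cells. Of single CpGs with at least 3 calls, 25 of 31 in H3K9me3 run 2 were at 80% or more and 0 at 20% or less, whereas H3K27me3 had 45 of 88 at 80% or more, 39 between and 4 at 20% or less.

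The Rasgrf1 gene itself started in unmethylated chromatin. Within 500 bp of the annotated start, the H3K27me3 levels were 0 of 39, 3 of 315 (0.952%), 31 of 1650 (1.88%) and 35 of 2957 (1.18%, 0.852 to 1.64%) in order of cell number, and H3K4me1 had 0 of 58 and 3 of 156 (1.92%, 0.656 to 5.50%). H3K9me3 had 0 calls there in both runs, where its mean density would give 21.5 in run 2. Far downstream, 2 H3K9me3 peaks past the end of the gene were methylated. The wider one, 6290 bp from 133 kb after the start (chr9:90042128-90048417, intergenic), had 377 of 412 methylated calls in run 2 (91.5%) and 113 of 122 in run 1 (92.6%). H3K27me3 from 250000 cells had only 4 calls there, so no window of it could be compared.

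The Zdbf2 locus carried most H3K4me1 peaks of the group and few of the other marks. It held 17 unified H3K4me1 peaks, the widest of 16040 bp (chr1:63201746-63217785) just after the first start, within the gene. Another gene, Gpr1, also starts within the Zdbf2 gene body (chr1:63222779-63223778, 500 bp on both sides), with an H3K4me1 peak at its start. The peaks of the locus are therefore not all assigned to Zdbf2. At the first Zdbf2 start (chr1:63199858-63200857, 39 CpGs) H3K4me1 had 0 of 95 methylated calls in run 1 and 3 of 245 in run 2 (1.22%, 0.417 to 3.54%), at 13.9 times the library mean density. H3K27me3 had 0 of 10 calls from 250000 cells, which allows up to 30%, and H3K9me3 had 0 of 2 and 0 of 1. The second start, inside the annotated gene at chr1:63272769-63273768, was also low, with 1 of 80 H3K4me1 calls in run 2 (1.25%) and 3 of 242 H3K27me3 calls (1.24%, 0.422 to 3.58%). Both starts were low in every library with 10 or more calls.

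The H3K4me1 peaks of the Zdbf2 locus, which lie before, between and past the starts, were at many different levels. Of the 14 peaks with at least 20 calls in run 2, 4 were at 20% or less, 10 lay between 20 and 80%, and 0 were at 80% or more. Their levels ran from 1.66 to 76.2% with a median of 41.4%. By 1-kb windows with at least 10 calls in run 2, the locus had 18 of 66 at 20% or less, 38 between and 10 at 80% or more. Genome-wide, 48862, 92741 and 18312 of 159915 windows fell in these classes, so the mixed levels do not set this locus apart. The peak of 16040 bp had 205 of 1306 methylated calls (15.7%), and within it single windows ranged widely. The window 9.64 kb after the start had 1 of 112 (0.893%), the one 12.6 kb after had 0 of 82 (up to 3.66%), and the one 8.64 kb after had 31 of 63. A CpG-rich peak of 3078 bp (chr1:63246004-63249081) was low in both marks, with 14 of 305 H3K4me1 calls (4.59%) and 3 of 187 H3K27me3 calls (1.60%).

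Past that peak, in the stretch between the starts of Zdbf2, some windows had higher levels. The window 51.6 kb after the first start had 18 of 40 methylated H3K4me1 calls in run 1 (45.0%) and 44 of 83 in run 2 (53.0%, 42.4 to 63.4%), and 7 of 10 H3K27me3 calls. The window 62.6 kb after had 18 of 20 and 29 of 34 H3K4me1 calls (85.3%, 69.9 to 93.6%) and 8 of 9 H3K27me3 calls. Close to the second start, the window 71.6 kb after was low, with 1 of 18 H3K4me1 calls in run 2 (5.56%) and 5 of 25 H3K27me3 calls. In the 10 kb before the first start, 164 of 478 H3K4me1 calls were methylated (34.3%, 30.2 to 38.7%), and 82 of 236 in run 1 (34.7%). The only H3K9me3 peak of the locus lay 123 kb after the first start (chr1:63323198-63324510), past the gene, and was hardly methylated. Its 12 CpGs had 10 of 98 methylated calls in H3K9me3 run 2 (interval 5.64 to 17.8%), 5 of 40 in run 1 (12.5%), 6 of 123 in H3K4me1 run 2 (4.88%) and 0 of 21 in H3K27me3 (up to 14.3%). This H3K9me3 peak was therefore unlike those at H19, Igf2 and Rasgrf1, which were at 86.5% or more in the same library.

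Across the 4 loci few windows had enough calls for the window tests, and all differences called lay upstream of Rasgrf1. For H3K9me3 against H3K27me3, 29 windows had enough calls, and 4 were called with H3K9me3 higher, all 4 at Rasgrf1, against 2.5% of 16623 windows genome-wide. None was called with H3K27me3 higher, against 0.289%. For H3K9me3 against H3K4me1, 5 windows could be tested and 1 was called with H3K9me3 higher, against 6.78% of 14485, and 0 with H3K4me1 higher, against 0.159%. For H3K27me3 against H3K4me1, 26 windows could be tested and 0 were called, against 1.09% with H3K27me3 higher and 0.463% with H3K4me1 higher of 57920. Of these, 1 window over the Rasgrf1 start region (chr9:89910001-89911000) had 150 of 2528 H3K27me3 calls against 15 of 97 H3K4me1 calls, a difference of -9.53 points (Fisher's exact test, adjusted p = 0.0398), short of the 20 points a call needs. It was the only one of the 26 with an unadjusted p below 0.05. At H19, 6 windows could be tested between H3K9me3 and H3K27me3, with a median difference of 2.71 points, and none could between H3K9me3 and H3K4me1. With at most 24 H3K4me1 calls in any H19 window and none in the control region, a difference between these marks was not detectable there.

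**Figure D5:**
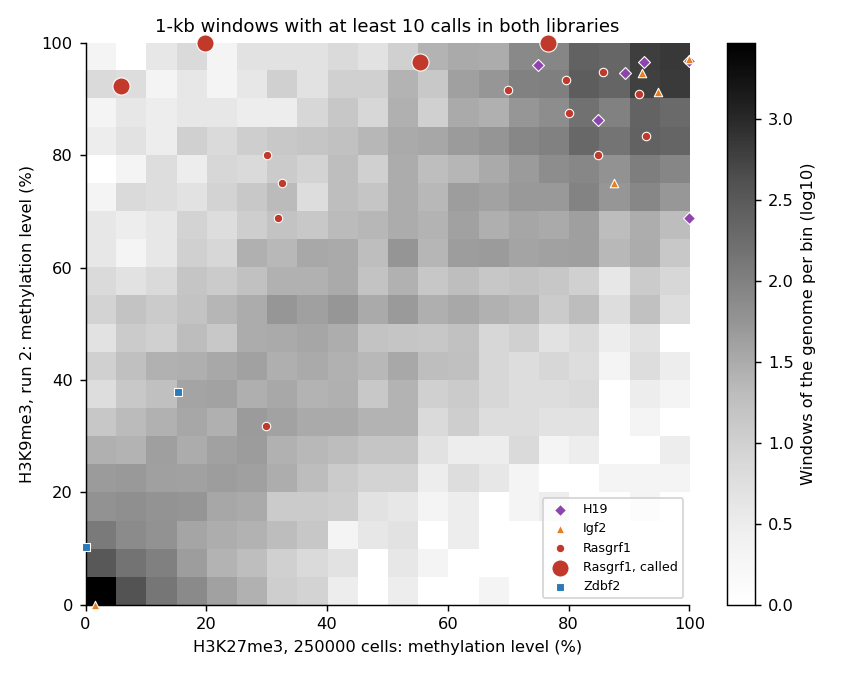
Methylation level of 1-kb windows in H3K9me3 run 2 (y axis, %) against H3K27me3 from 250000 cells (x axis, %), for windows with at least 10 calls in both; grey shows the log10 number of all 16623 windows per bin and symbols are windows of the 4 loci. The 4 called Rasgrf1 windows (large circles) sit at the top, the leftmost at 5.80% and 92.2%, while the H19 windows and most Igf2 windows sit at the upper right.

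The combination seen at Rasgrf1 was uncommon in the genome. Of the 16623 windows read by both libraries, 70 (0.421%) were at 80% or more in H3K9me3 and at 20% or less in H3K27me3, and 5008 (30.1%) were at 80% or more in both. Among 7007 windows with at least 10 calls in all 3 marks, those nearest to the Rasgrf1 window, by Euclidean distance over the 3 levels, overlapped Gnas, Zfp316, Cnn3, Kcnq1 with Kcnq1ot1, and Peg3, at distances of 3.65 to 6.49 points. The Rasgrf1 window had 11 H3K4me1 calls, and the H3K9me3 levels of the Zfp316 and Cnn3 windows rest on 16 and 12 calls. The order of these neighbours is therefore not settled. This likeness was added after the values were seen and is a description. The likeness set out for the region with the H19 control region could not be computed, since its merged region held 15 H3K4me1 calls and 20 were required. At the starts of 14 other imprinting control loci that could be placed, 11 had at least 10 H3K9me3 calls, with a median level of 90.2%, and 9 were at 80% or more. The 10 with enough H3K4me1 calls had a median of 1.19% and were all at 20% or less. Among all windows with 10 or more calls in that library, 48862 of 159915 were at 20% or less, but windows are not starts. Of other starts with enough H3K4me1 calls, 5 of 5 stem cell markers and 4 of 5 neighbouring genes (described below) were at 20% or less. The 10 control loci with enough H3K27me3 calls had a median of 5.74%, with 6 at 20% or less and 1 at 80% or more. Genome-wide, 31710 of 260630 windows with enough calls in that library were at 20% or less. Of other starts with enough H3K27me3 calls, 5 of 6 stem cell markers and 4 of 8 neighbouring genes were. Low H3K4me1 or H3K27me3 levels at a start therefore do not set the control loci apart from other genes. Over all windows with 10 or more calls in the same H3K9me3 library, the median was 90% and 89907 of 124747 were at 80% or more, so these H3K9me3 levels do not set the control loci or H19 apart.

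Whole peak regions of Igf2 and Rasgrf1 also differed between H3K9me3 and H3K4me1, though the marks read different CpGs in them. Of 28 merged peak regions that touch the loci, 8 had enough calls for H3K9me3 against H3K4me1, and 3 were called with H3K9me3 higher, against 26.3% of 10579 regions. None was called with H3K4me1 higher, against 0.548%. With 8 regions tested, the count of 3 is not far from the genome share. In the Igf2 region of 56536 bp, H3K9me3 was at 86.4% and H3K4me1 at 7.31%, a difference of 79.1 points (Fisher's exact test, adjusted p = 7.55e-139). At the 19 CpGs called in both libraries the difference was 34.1 points (Fisher's exact test, adjusted p = 0.0314). Of its 361 H3K9me3 calls, 280 lay in the peak before the gene, and 550 of its 561 H3K4me1 calls lay in the gene body. In the Rasgrf1 region from 89867251 to 89894542, which holds the upstream windows above, the levels were 91.8% and 19.6%, a difference of 72.2 points (Fisher's exact test, adjusted p = 1.2e-24), and 57.4 points at shared CpGs. In the region over the Rasgrf1 start the difference was 75.0 points (Fisher's exact test, adjusted p = 1.43e-17) with 31 H3K9me3 calls. The H3K9me3 and H3K4me1 calls there lay at separate CpGs, so the test could not be repeated at shared CpGs. The H19 region had 100% of 15 H3K4me1 calls and 93.3% of 1245 H3K9me3 calls methylated and was not called.

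Other genes of the same domains were placed by their starts. Rasgrf2 was also on the list but lies on chromosome 13, and was left out once its position was seen. Of the other 14 neighbours, 10 could be placed, Ascl2 and Adam23 among them, and H3K27me3 peaks lay at 6 of these starts, H3K4me1 peaks at 3 and H3K9me3 peaks at 0. The 8 with at least 10 H3K27me3 calls ran from 0 to 82.9%, with a median of 15.3%, and 4 were at 20% or less. Among markers of other cell types, 2 of 5 placed fibroblast genes and 1 of 2 placed endoderm genes had an H3K4me1 peak at the start. H3K27me3 peaks lay at the starts of 3 of the 5 and 1 of the 2. The genes with an H3K4me1 peak there, Twist1, Twist2 and Foxa2, all had an H3K27me3 peak as well. Over all 1-kb windows, 4.87% touched an H3K27me3 peak, 4.25% an H3K4me1 peak and 2.97% an H3K9me3 peak, but windows are not starts. No share over all gene starts was computed, so the counts for these lists and the stem cell markers are not read as high or low. Peaks do not measure expression, so the purity of the culture was not tested.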

How the data were processed

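Methylation was read from the table of counts deposited by the authors, with methylated calls and total calls per CpG and bisulfite library, per the file headers; the values are whole and not normalized. The submitters' processing notes name mm10 as the build and cutadapt 1.12, Bismark 0.23.0, Bowtie2 2.3.0, HOMER 4.10.3 and bedtools 2.29.2; their settings and the treatment of duplicate reads are not given in the sources used here. Peaks are intervals without scores, deposited per sample and per mark. The 126 CG positions of the 7 RefSeq promoters all matched positions of the table, and 0 columns of per-sample values were left out.

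Calls were summed over 1-kb windows, elements and merged peaks of chromosomes 1 to 19 and X. Libraries were compared with Fisher's exact test (two-sided) in units with at least 10 calls in both, with Benjamini-Hochberg adjustment over all units, and called at an adjusted p of 0.05 or less and a difference of at least 20 points. H3K4me1 and H3K9me3 run 2 and H3K27me3 from 250000 cells were used. Intervals are Wilson 95% intervals, and beside a level of 0 stands the highest level that 3 counts would give; both cover counting error only, since copies and calls on 1 fragment are not independent. The tables used give no strand for H19, which was taken as minus from general knowledge. Peaks counted as present in a window when they shared 1 bp. The text names the 4 genes, the elements placed by distance from each start, and all windows called. The test was run on simulated data with independent calls, which does not cover calls that share a fragment. The members, lists and elements were chosen with earlier results of these data known; the levels per unified peak and per inner RefSeq start, the likeness of the Rasgrf1 window and the Rasgrf1 span were added after the data were seen. Alternatives were other call minimums, summed runs, run 1, shared CpGs, shifted windows, the 100000-cell library, and other peak rules and flanks. Python 3.11.15, numpy 2.4.6, scipy 1.17.1, pandas 2.3.3 and numba 0.67.0 were used.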

Additional observations from a re-analysis of the deposited data

How the results depend on the processing

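For H3K9me3 against H3K4me1, the 1 window called at the loci was 0 with a minimum of 20 calls, 0 with run 1 alone, 0 with only CpGs called in both libraries and 0 with windows shifted by 500 bp, since the Rasgrf1 window then had too few H3K4me1 calls or was cut differently. For H3K9me3 against H3K27me3, the 4 windows called were 7 with runs summed and 2 with run 1 alone, where fewer windows could be tested. The 4 called Rasgrf1 windows kept their direction and their call under each alternative that could test them. The count for H3K27me3 against H3K4me1 stayed at 0 under all 7 alternatives, and the merged regions called ranged from 2 to 3. Over the genome, the called windows for H3K9me3 against H3K4me1 went from 1005 to 648 with a minimum of 20 calls, 230 with run 1 and 2075 with runs summed. Those for H3K27me3 against H3K4me1 went from 900 to 318 with run 1, 398 at shared CpGs and 2002 with runs summed, and those for H3K9me3 against H3K27me3 from 463 to 299 with a minimum of 20 calls, 179 with run 1 and 295 at shared CpGs. Merged regions called went from 2839 to 1159 with run 1 and 792 at shared CpGs. The mean of single-CpG levels moved the Rasgrf1 upstream element from 65.0% to 73.9% in H3K27me3 and the flank before Zdbf2 from 34.3% to 39.2% in H3K4me1. It also moved gene bodies: Rasgrf1 in H3K27me3 (1721 of 8208 calls) to 70.6%, Igf2 in H3K27me3 (3638 of 19103) to 22.7%, and Zdbf2 from 28.3% to 37.4% in H3K4me1 and from 20.1% to 28.5% in H3K27me3; the cause was not tested. Of 93 alternative levels at the elements, 72 stayed within the interval of the value given. All 12 alternative counts of windows with peaks stayed within 1.5 times. No paired analysis was possible because the runs, from the agreement of their calls and not from the labels, were treated as the same library sequenced again, and Fisher's exact test has no block. H3K4me1 had 0 calls in both runs at the H19 control region, the Igf2 start and the last 3 kb of Igf2. Its level was therefore not read at these elements. At the mean density of run 2, 27.2, 1.81 and 18.1 calls would lie there, in that order.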
